A study of Mus musculus with 3 samples.

Results

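The 37 genes described here encode acute-phase proteins and complement proteins, together with the receptors for the complement fragments C3a and C5a. They were taken as a named list out of the 32285 genes in the count tables, and all 37 were found there by symbol. Their transcripts were measured by single-nuclei RNA sequencing (sNuc-Seq) of frozen liver from 3 male C57BL/6 J mice, with 1 library per mouse. One mouse received a normal diet (ND). The other two were injected subcutaneously with 0.2 mg streptozocin (STZ), which destroys pancreatic islets, at 3 days of age and received a diet rich in fat and cholesterol (HFHC) from 4 weeks of age; they are called STZ-HFHC 1 and STZ-HFHC 2, and their livers were labelled as having MASH-related liver fibrosis. The age at which these livers were taken was not given in the sources used here. No mouse with STZ alone or the diet alone was among the libraries, so the effects of the toxin and the diet cannot be told apart. The titles of the STZ-HFHC libraries hold codes whose meaning is not stated. A batch under these codes and the condition cannot be told apart either.

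The acute-phase response is the change in the proteins that hepatocytes secrete when cytokines, above all IL-6 and IL-1, reach the liver. In mice its strongest positive members are serum amyloid A and serum amyloid P, while albumin and transthyretin are among the proteins that fall. Complement is a chain of plasma proteins that marks and lyses targets: C1q opens the classical pathway, mannose-binding lectins and their proteases the lectin pathway, factor B and properdin the alternative pathway, all of which meet at C3 and end in the membrane attack complex of C5 to C9. Hepatocytes secrete most of these proteins, whereas C1q and properdin come mainly from myeloid cells.

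Since cytokine-induced transcription of acute-phase genes is known to use C/EBP, NF-kB and STAT factors, the 250 bases before the start site of 6 members are shown, taken from RefSeq on build GRCm38.p6. They were chosen because Saa1, Saa2, Orm2, Orm3 and Lcn2 had higher levels in both STZ-HFHC mice and because C3, on which the complement pathways meet, had a lower one. The capitals mark a match to TTGCNNAA, the letters of a C/EBP site, searched on both strands. The windows lie at chr7:46742981-46743230 (minus strand), chr7:46751583-46751832 (plus strand), chr4:63362199-63362448 (plus strand), chr4:63355908-63356157 (plus strand), chr2:32387740-32387989 (minus strand) and chr17:57228137-57228386 (minus strand), and each is written 5′ to 3′ toward its gene.
Saa1: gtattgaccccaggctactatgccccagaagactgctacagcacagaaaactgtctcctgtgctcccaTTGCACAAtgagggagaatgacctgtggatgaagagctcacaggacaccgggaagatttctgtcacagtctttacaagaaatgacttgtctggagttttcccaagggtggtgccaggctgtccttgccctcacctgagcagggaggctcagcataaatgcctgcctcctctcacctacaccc
Saa2: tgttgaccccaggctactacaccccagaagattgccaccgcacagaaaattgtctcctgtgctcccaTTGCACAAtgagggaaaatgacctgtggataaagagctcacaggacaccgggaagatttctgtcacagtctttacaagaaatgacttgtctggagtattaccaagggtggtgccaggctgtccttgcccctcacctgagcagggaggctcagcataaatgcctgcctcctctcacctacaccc
Orm2: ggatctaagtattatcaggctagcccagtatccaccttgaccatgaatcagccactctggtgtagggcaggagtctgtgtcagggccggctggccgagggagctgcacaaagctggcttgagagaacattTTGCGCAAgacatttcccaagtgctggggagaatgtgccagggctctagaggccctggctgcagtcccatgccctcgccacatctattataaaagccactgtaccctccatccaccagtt
Orm3: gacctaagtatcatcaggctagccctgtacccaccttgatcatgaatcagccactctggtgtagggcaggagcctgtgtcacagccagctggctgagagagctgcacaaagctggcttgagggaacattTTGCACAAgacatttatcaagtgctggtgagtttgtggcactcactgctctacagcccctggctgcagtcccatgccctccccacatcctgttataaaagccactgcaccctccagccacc
Lcn2: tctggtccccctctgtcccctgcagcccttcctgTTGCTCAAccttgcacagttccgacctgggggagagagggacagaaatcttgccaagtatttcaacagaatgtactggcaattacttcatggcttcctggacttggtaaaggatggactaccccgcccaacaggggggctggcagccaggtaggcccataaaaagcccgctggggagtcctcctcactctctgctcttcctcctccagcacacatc
C3: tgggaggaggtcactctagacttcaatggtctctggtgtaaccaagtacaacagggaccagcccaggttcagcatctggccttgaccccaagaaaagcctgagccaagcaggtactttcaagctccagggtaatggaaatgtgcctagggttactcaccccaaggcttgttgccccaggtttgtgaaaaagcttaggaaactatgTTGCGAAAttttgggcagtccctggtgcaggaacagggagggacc

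The first base of the match lay 182 and 183 bases before the start of Saa1 and Saa2, 120 and 121 bases before that of Orm2 and Orm3, 216 bases before that of Lcn2 and 45 bases before that of C3. The windows of Saa1 and Saa2 were identical at 238 of 250 aligned positions (95.2%) and those of Orm2 and Orm3 at 219 of 250 (87.6%). Promoters were given for 29 of the 37 members, and 12 of the 29 held the C/EBP letters, which 9.56% of all 32851 promoters of this length also held. Each window shown above held a match. Of the other members lower in hepatocyte-like nuclei of both STZ-HFHC mice, Apcs, Itih1, Itih3 and C8b held none and Hp had no promoter entry. The C/EBP letters were also held by Saa4, Hpx, Cp and Itih2, which lay below ND to a lesser degree in both mice. Saa3 and C9 held them too and lay above ND in one mouse and below it in the other. The letters of an NF-kB site, GGG and CC with 5 bases of any kind between them, were found in 13 of the 29 and in 45.8% of all promoters, and TTCNNNGAA, those of a STAT site, in 4 of the 29 and in 7.02%. None of the 13 C/EBP matches overlapped a match to one of the other two. Orm1, Hp, C1qa, C2, C4b, Cfb, Cfi and Masp1 had no entry in the promoter table. These matches describe letters and not bound sites.

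Several members lie side by side in the genome (mm10, GENCODE M21). Saa3, Saa4, Saa1 and Saa2 follow each other on chromosome 7 between 46711998 and 46754313, and Orm1, Orm3 and Orm2 on chromosome 4 between 63344560 and 63365878. Itih4, Itih3 and Itih1 share a stretch of chromosome 14 (30886476 to 30943289), and C8b and C8a one of chromosome 4 (104766317 to 104876398). C1qb, C1qc and C1qa lie on the minus strand of chromosome 4 between 136880129 and 136898803. C4b, Cfb and C2 lie on the minus strand of chromosome 17 between 34728380 and 34898265. Part of the exonic sequence of some members also occurs in another gene, and Cell Ranger counts only reads that map to 1 place. The share of 50-base stretches found in another gene was 31.5% for Saa1 and 29.97% for Saa2, 20.4% for Orm1, 22.7% for Orm2 and 3.59% for Orm3, and 34.6% for C4b, whose copy is C4a. It was 38.7% for C2 and 73.0% for Cfb, which overlap the gene model Gm20547 on the same strand, and 6.90% for Serpina3n. Counts of these genes are therefore uncertain.

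The 3 libraries held 9424, 9923 and 11642 barcodes for ND, STZ-HFHC 1 and STZ-HFHC 2, of which 8494, 8921 and 10921 were kept, with 42715797, 44350401 and 55632923 unique molecular identifiers (UMIs, 1 per captured transcript). Between 29 and 32 barcodes were shared by a pair of libraries, and none of them had the same counts. Nuclei were clustered without the 37 genes and clusters were named from marker lists. Hepatocyte-like nuclei numbered 5423, 3051 and 4799, and macrophage-like nuclei 243, 1400 and 1032. Hepatocyte-like nuclei came from different clusters in the ND mouse (clusters 0, 1 and 3) and in the STZ-HFHC mice (clusters 20 to 23), and only the small cluster 19 held at least 20 nuclei in all 3. Cluster 23 counted Glul, Slc1a2 and Themis among its leading genes. Themis is a T-cell gene, read there at 530.4 and 719 UMIs per 1000000 UMIs (CPM) in the STZ-HFHC mice while the T-cell gene Cd3e was at 0.75 and 0.40 CPM, so this cluster was named by its hepatocyte markers and the main counts are also given without it. Median depth was 4024 UMIs per hepatocyte-like nucleus in ND and 7846 and 6532 in STZ-HFHC, and mitochondrial UMIs were 0.162% in ND and 0.0414% and 0.0328% in STZ-HFHC. No cluster was neutrophil-like. The neutrophil genes S100a8 and S100a9 gave 8, 34 and 52 and 8, 65 and 69 UMIs in all nuclei. Of the 8 neutrophil markers Csf3r gave the most, 141, 658 and 615 UMIs.

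Hepatocyte-like nuclei of both STZ-HFHC mice had more transcripts of Saa2, Orm2, Orm3 and Lcn2 than those of the ND mouse, and fewer of Hp, Apcs, Itih1, Itih3, C3 and C8b. The inducible genes that were higher were read at low levels, under 12 CPM, whereas several of the genes that were lower, such as Hp (292.5 CPM) and C3 (346 CPM), were abundant in ND. The question is how the hepatic acute-phase and complement program differs between fibrotic and normal liver. Because ND was 1 library, no test was run, and a gene was called higher or lower by a rule of size: it needed 50 or more UMIs in the 3 libraries together, and both STZ-HFHC mice had to lie 1 or more log2 units above ND, or below it, after 0.5 was added to each count. By this rule 4 of the 36 members with enough UMIs were higher (11.1%) against 8.26% of all 14854 genes, and 6 were lower (16.7%) against 5.45%. The count of lower members changed with cluster 0 of ND and with the unnamed cluster 11 of STZ-HFHC, both described below. With cluster 0 left out, 5 members were higher, against 8.56% of genes, and 4 were lower, against 4.76%. With cluster 11 added to the hepatocyte-like nuclei, 4 were higher, against 9.28%, and 4 were lower, against 4.48%. The median log2 ratio over the 36 members was -0.42 and -0.23 in STZ-HFHC 1 and 2, that over all genes 0.09 and 0.10. In all, 21 members lay below ND in both mice, 11 above and 4 on different sides. Over all 14854 genes these counts were 5260, 7156 and 2438. C5ar1, with 30 UMIs, was not assessed. Intervals given below are 95% exact Poisson intervals of a level or of a ratio of levels, and they cover counting error only, not the spread between mice.

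**Figure D1:**
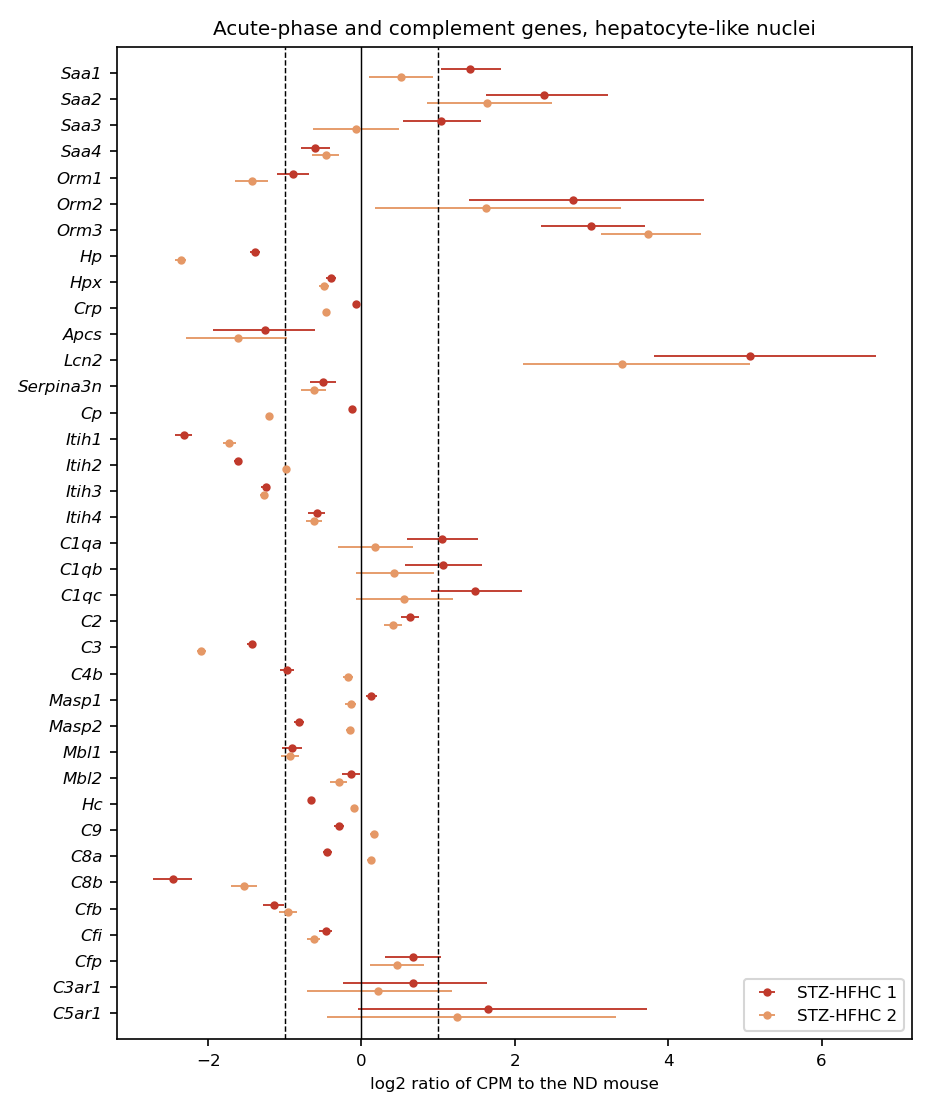
Log2 ratio of the level (CPM, with no count added) in hepatocyte-like nuclei of each STZ-HFHC mouse to that of the ND mouse, for the 37 genes; bars are 95% counting intervals and dashed lines mark a log2 ratio of 1 and -1. Lcn2, Orm3, Orm2 and Saa2 lie right of 1 and Hp, Apcs, Itih1, Itih3, C3 and C8b left of -1 in both mice. C5ar1, with 30 UMIs and not assessed, also lies right of 1 in both.

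Among the serum amyloid A genes, Saa1 and Saa2 encode the apolipoproteins induced most strongly in acute inflammation, Saa3 a form also made outside the liver, and Saa4 a constitutive form. Saa2 was read with 17, 91 and 72 UMIs in ND, STZ-HFHC 1 and STZ-HFHC 2, or 0.659, 3.42 and 2.04 CPM. Both STZ-HFHC mice lay above ND, with ratios of 5.19 (interval 3.07 to 9.30) and 3.099 (1.81 to 5.61). Saa1 was at 2.91, 7.79 and 4.14 CPM, and its ratios of 2.68 (2.04 to 3.53) and 1.42 (1.07 to 1.91) did not both reach the rule. Saa3 was at 1.94, 3.99 and 1.84 CPM, with the ND and STZ-HFHC 2 mice close together. Saa4 went the other way, at 21.6 CPM in ND and 14.2 and 15.6 CPM in STZ-HFHC.

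The orosomucoids, or alpha-1-acid glycoproteins, are plasma carriers of small molecules, and the 3 mouse genes did not move together. Orm1 was at 21.2 CPM in ND and at 11.4 and 7.86 CPM in STZ-HFHC. The mean of the log2 ratios was -1.16 ± 0.38 (SD, n = 2 mice), and only STZ-HFHC 2 passed -1. Within ND, Orm1 was far higher in cluster 0, described below, than in clusters 1 and 3, whose levels were near those of the STZ-HFHC mice. Orm3 was read with 22, 180 and 402 UMIs, or 0.853, 6.77 and 11.4 CPM. Its ratios to ND were 7.93 (5.08 to 13.0) and 13.4 (8.71 to 21.6), and the log2 ratio averaged 3.33 ± 0.53. Orm2 rested on few counts, 5, 35 and 21 UMIs, with ratios of 6.79 (2.65 to 22.2) and 3.07 (1.13 to 10.4).

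Lcn2 encodes lipocalin 2, which binds bacterial siderophores and is made by stressed hepatocytes and by neutrophils. It was read with 5 UMIs in the ND mouse (0.194 CPM), 173 in STZ-HFHC 1 (6.51 CPM) and 72 in STZ-HFHC 2 (2.04 CPM). The ratios were 33.5 (14.1 to 105) and 10.5 (4.31 to 33.4), the mean log2 ratio was 4.10 ± 1.18, and the STZ-HFHC mice also differed from each other. Serpina3n, a serine protease inhibitor, was at 25.4, 17.9 and 16.5 CPM. Cp encodes ceruloplasmin, the copper-carrying ferroxidase, and was at 744 and 682 CPM in ND and STZ-HFHC 1 but 322 CPM in STZ-HFHC 2, so that the STZ-HFHC mice differed by more than either counting interval.

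Scavengers of free hemoglobin and heme and the pentraxins were lower or little different. Hp, which encodes haptoglobin, was at 292.5 CPM in the ND mouse and at 111.9 and 57.2 CPM in the STZ-HFHC mice, ratios of 0.383 (0.367 to 0.399) and 0.196 (0.186 to 0.205). This call was fragile: Hp no longer passed the rule without cluster 0 of ND, described below, and failed in 5 of 15 alternatives. Hpx, for the heme carrier hemopexin, was at 161, 123 and 115 CPM. Among pentraxins, Crp, for C-reactive protein, which is not an acute-phase protein of note in mice, was at 785, 748 and 568 CPM. Apcs, for serum amyloid P, was at 2.599, 1.09 and 0.851 CPM from 67, 29 and 30 UMIs, ratios of 0.420 (0.262 to 0.658) and 0.328 (0.205 to 0.511).

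All 4 genes for heavy chains of the inter-alpha-trypsin inhibitor family, which bind hyaluronan in the extracellular matrix, lay below ND in both mice. Itih1 was at 154 CPM in ND and 30.9 and 46.7 CPM in STZ-HFHC, and its log2 ratios averaged -2.02 ± 0.42. Itih3 was at 358 CPM in ND and 150 and 148 CPM in STZ-HFHC, and its log2 ratios averaged -1.26 ± 0.02. Itih2, at 492, 161 and 248 CPM, just missed the rule with a log2 ratio of -0.99 in STZ-HFHC 2. Itih4 was at 67.3, 44.8 and 43.8 CPM.

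Of the complement components that hepatocytes make, C3 and C8b were lower in both mice. C3 was at 346 CPM in the ND mouse and at 128 and 81.5 CPM in the STZ-HFHC mice, ratios of 0.371 (0.356 to 0.386) and 0.235 (0.226 to 0.245). C2, the protease of the classical C3 convertase, lay on the other side of ND at 36.4, 56.5 and 48.5 CPM, ratios of 1.55 (1.43 to 1.69) and 1.33 (1.23 to 1.45) that were short of the rule. C4b, its partner, was at 121, 61.6 and 107 CPM. In the lectin pathway, the mannose-binding lectin gene Mbl1 was at 53.1, 28.4 and 27.9 CPM and Mbl2 at 47.0, 42.6 and 38.3 CPM. The protease gene Masp2 was at 205, 116 and 185 CPM and Masp1 at 126, 138 and 114 CPM, and none of these 4 passed the rule.

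The genes of the membrane attack complex did not share a direction. C8b, for the beta chain of C8, was read with 859, 161 and 406 UMIs, or 33.3, 6.05 and 11.5 CPM, a mean log2 ratio of -1.99 ± 0.65. C8a, for its alpha chain and the neighbour of C8b on chromosome 4, was at 215, 158 and 234 CPM, below ND in one mouse and above it in the other. Hc, which encodes C5, was at 493, 314 and 461 CPM, and C9 at 161, 132 and 180 CPM. Among genes of the alternative pathway and its control, Cfb, for factor B, was at 52.6, 23.8 and 27.1 CPM and passed in STZ-HFHC 1 alone, with log2 ratios of -1.14 and -0.96. Cfi, for factor I, which cleaves C3b and C4b, was at 96.4, 69.7 and 62.7 CPM. Over all members, counting intervals of the ratio lay above 1 in both mice for 7 (Saa1, Saa2, Orm2, Orm3, Lcn2, C2 and Cfp) and below 1 in both for 21. How many of all genes did so was not counted.

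The other genes of these pathways, counted from lists, are given for the same nuclei. Of 15 further positive acute-phase genes, 14 had enough UMIs: Il1r1, for the IL-1 receptor, was higher (210, 746 and 465 CPM), and Fgb, Fgg, Hamp, Hamp2 and Mt1 were lower. Hamp, for the iron hormone hepcidin, was at 352, 102 and 57.5 CPM, and the fibrinogen gene Fgb at 294, 101 and 92.1 CPM. Of 10 negative acute-phase genes none was higher and 4 were lower, namely Ttr, Trf, Rbp4 and Igfals. Alb, for albumin, was at 3287, 2562 and 1901 CPM. Positive and negative acute-phase genes thus both included genes that were lower.

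Of 25 genes of IL-6, IL-1 and TNF signaling, 21 had enough UMIs, of which Il1r1 was higher and Il1b and Cebpd, for the factor C/EBP delta, were lower. Cebpd was at 20.2, 7.33 and 9.82 CPM. Of 8 assessed among 11 other complement components, C6, C8g and Fcna were lower and none higher. C8g, for the gamma chain of C8, was at 51.3, 6.02 and 6.92 CPM, and C6 at 159, 46.3 and 53.2 CPM, while C1s1, the highest of the list over the 3 libraries together, was at 129, 141 and 194 CPM. Among 16 complement regulators, Csmd1 was higher and Serping1, Vtn and Susd4 were lower. Serping1, for the C1 inhibitor, was at 254.5 CPM in ND and 95.8 and 105.1 CPM in STZ-HFHC, and the factor H relative Cfhr2 at 306, 396 and 342 CPM. Of 6 assessed complement receptors, Itgam alone was higher, from 5, 29 and 31 UMIs. Calr, the receptor gene with the most UMIs, was at 47.6, 32.1 and 40.3 CPM. Itgam was at 0.194, 1.09 and 0.88 CPM in hepatocyte-like and at 4.04, 16.3 and 12.3 CPM in macrophage-like nuclei. Il1b was among the leading genes of the macrophage-like cluster 9, which held 227 ND nuclei. The part of RNA released from macrophages in the Il1b, Fcna and Itgam levels was not tested.

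The lower levels were not particular to these genes. A set of 12 other genes for proteins that hepatocytes secrete or hold in abundance, used as a reference for free RNA, lay below ND in both mice without exception, and 7 of the 12 were lower by the rule, with median log2 ratios of -1.32 and -1.37. Their summed level in hepatocyte-like nuclei was 7459 CPM in ND and 3499 and 3219 CPM in STZ-HFHC. Its part in the lower levels of Hp, Itih1, Itih3, C3 and C8b was not tested.

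Transcripts of the inducible genes were found at like levels in nuclei of other classes. Saa1 was at 0.409, 7.78 and 5.49 CPM in endothelial-like nuclei, at 1.31, 7.32 and 3.85 CPM in stellate-like nuclei and at 1.01, 8.76 and 5.44 CPM in macrophage-like nuclei of ND, STZ-HFHC 1 and STZ-HFHC 2. In each of these classes the ND mouse was lowest, as in hepatocyte-like nuclei. Over the 3 other classes, Lcn2 ranged from 0 to 0.136 CPM in ND, from 3.201 to 5.76 in STZ-HFHC 1 and from 0.817 to 2.49 in STZ-HFHC 2. Orm3 ranged from 0.291 to 1.01, from 3.66 to 5.73 and from 6.53 to 8.84 CPM in the same order.

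Nuclei in droplets also take up RNA released from broken cells, which here would come mostly from hepatocytes. To measure it, the level of each gene in a class was divided by its level in hepatocyte-like nuclei of the same library, and the ratio was set beside those of the 12 reference genes. In the classes other than hepatocyte-like, the median of these reference ratios lay between 0.401 and 1.11, so nuclei of every class carried hepatocyte transcripts. A member was called above the free RNA range where its ratio, with the lower bound of its level, was over the highest reference ratio. In ND that ratio was only 0.92 in endothelial-like and 0.891 in stellate-like nuclei. There 11 and 10 members were called, a count not made over all genes. Among them in both classes were the plasma protein genes Cp, Itih3, Hc and C8a, with Hc at ratios of 1.011 and 0.927. Saa1, Saa2, Orm3 and Lcn2 were not above that range in macrophage-, endothelial- or stellate-like nuclei of either STZ-HFHC mouse. Their levels there cannot be told from free RNA. The check divides by the level in hepatocyte-like nuclei, so it cannot tell how much of that level was itself free RNA.

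**Figure D2:**
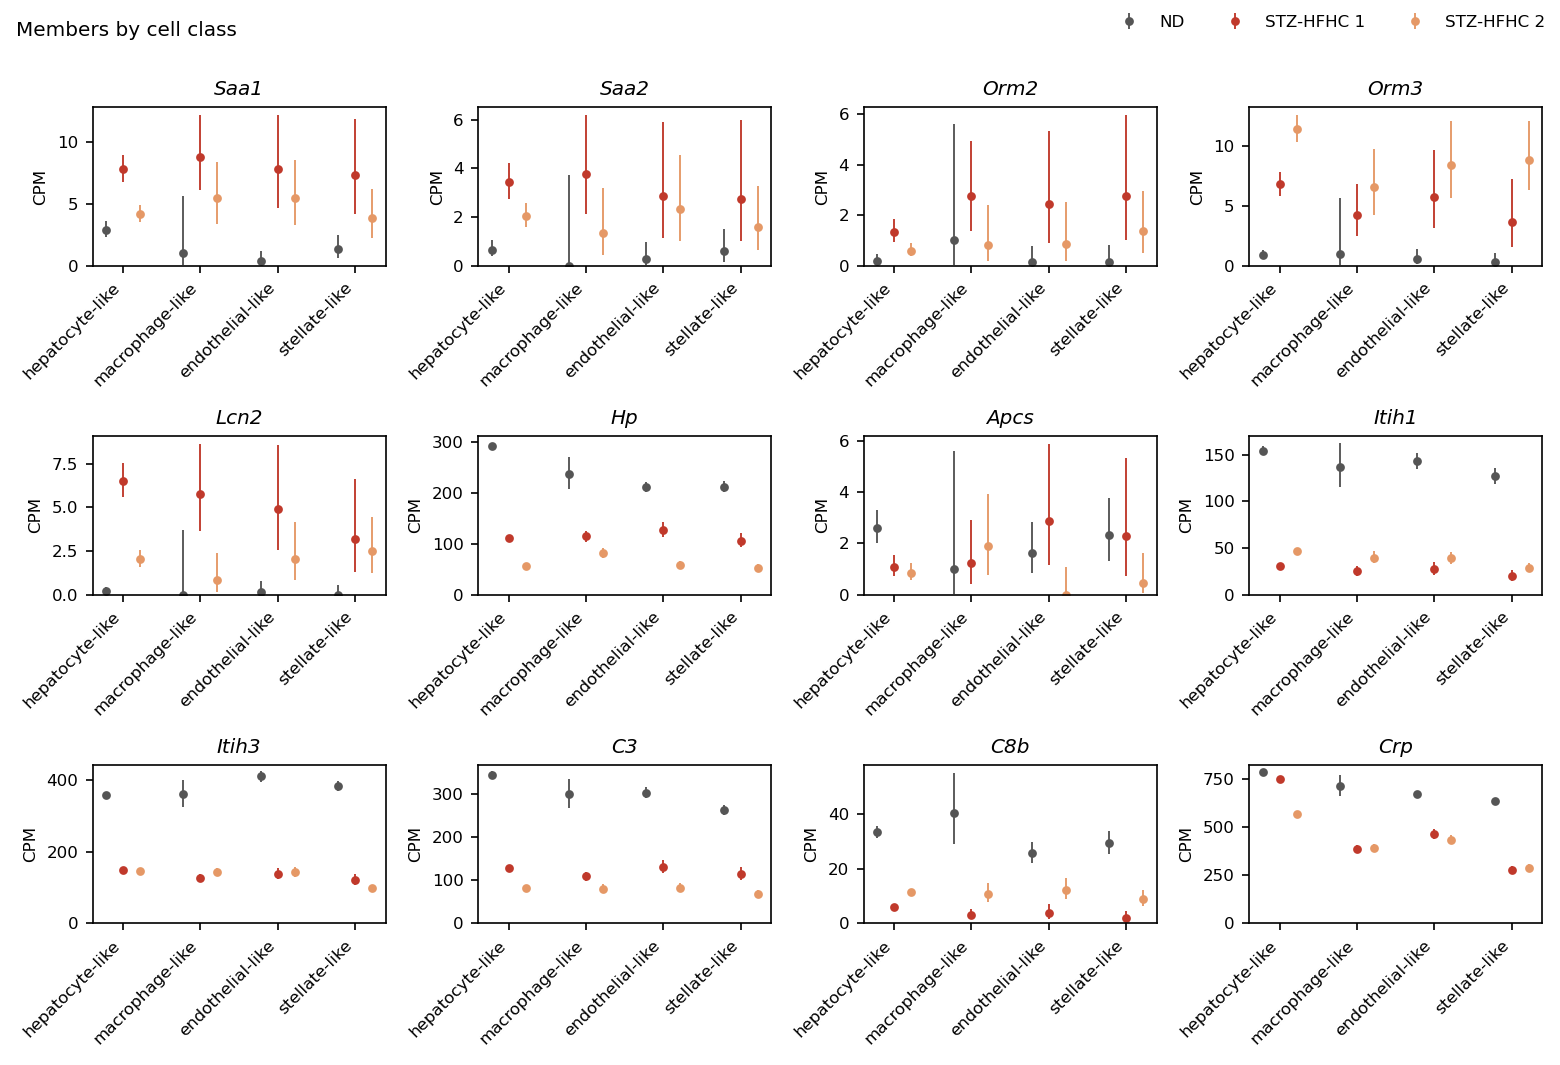
Level (CPM) of 12 of the genes in hepatocyte-, macrophage-, endothelial- and stellate-like nuclei of each mouse; points are UMI sums per library and bars 95% Poisson intervals. In each class Saa1, Lcn2 and Orm3 were lowest and Hp, Itih1, Itih3 and C3 highest in ND.

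Transcripts of C1q, properdin and the 2 anaphylatoxin receptors were above the free RNA range in macrophage-like nuclei. C1qa, C1qb and C1qc encode the chains of C1q, Cfp properdin, which stabilizes the alternative convertase, and C3ar1 and C5ar1 the receptors for C3a and C5a. These 6 of the 37 members were above it in all 3 libraries, and no other member was, while 13.8% of all genes were above it in both STZ-HFHC mice. They were not limited to these nuclei: in monocyte-like nuclei C1qa, C1qb, C1qc, C3ar1 and C5ar1 were above the range in both STZ-HFHC mice, against 11.8% of all genes, and Cfp in STZ-HFHC 1. The ratio of macrophage-like to hepatocyte-like nuclei was 9.18, 18.8 and 18.6 for C1qb and 12.2, 33.3 and 20.96 for C3ar1. The highest reference ratios were 1.07 (Gc), 1.31 and 1.42 (Apoa2). In hepatocyte-like nuclei the C1q genes were at 1.32 to 4.81 CPM, beside summed levels of 522, 418 and 452 CPM for the 14 macrophage markers.

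Macrophage-like nuclei of both STZ-HFHC mice had more C1qb than those of ND. C1qb was at 18.2 CPM in the ND mouse (18 UMIs) and at 77.9 and 49.5 CPM in the STZ-HFHC mice (311 and 182 UMIs), and it was higher by the rule, with ratios between 2.67 and 7.33 and between 1.68 and 4.71 at the interval's bounds. C1qa was at 20.2, 77.4 and 32.4 CPM and C1qc at 14.1, 72.6 and 23.4 CPM, and both passed in STZ-HFHC 1 alone. C3ar1 was at 8.07, 35.1 and 16.1 CPM, C5ar1 at 6.05, 13.0 and 9.26 CPM and Cfp at 25.2, 50.8 and 22.9 CPM. In STZ-HFHC 2 the interval of the ratio to ND included 1 for C1qa (0.994 to 2.72), C1qc (0.936 to 3.16), C3ar1 (0.947 to 4.82), C5ar1 and Cfp, and for C5ar1 it did so in STZ-HFHC 1 as well. In the same nuclei the 14 macrophage markers summed to 1847, 3913 and 2491 CPM in ND, STZ-HFHC 1 and STZ-HFHC 2, and the 12 reference genes for free RNA to 6441, 2391 and 2712 CPM. Their part in the C1qb levels was not tested.

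By the same rule, 2 of 31 assessed members were higher in macrophage-like nuclei, C1qb and Saa1, against 13.7% of 10639 genes. Saa1 had 1 UMI in ND and 35 and 20 in STZ-HFHC 1 and 2, and its ratio interval in STZ-HFHC 2 included 1 (0.863 to 224). Lower were 7, namely Hp, Cp, Itih1, Itih2, Itih3, C3 and C8b, against 4.74%. None of these 7, nor Saa1, was above the free RNA range. Among complement receptors, Itgam and Itgax, for chains of complement receptors 3 and 4, C5ar2 and Cd93 were higher, 4 of 6 assessed. In ND these calls rested on 4 UMIs of Itgam, 1 of Itgax, 1 of C5ar2 and 2 of Cd93. The ratio interval in STZ-HFHC 2 included 1 for C5ar2 (0.719 to 192) and Cd93 (0.841 to 29.4). Itgax was at 1.01, 23.3 and 12.3 CPM. In the other pathway lists Il1rn, Tnf, Osmr, Jak2 and Csmd1 were higher, with 0 ND UMIs for Il1rn, Tnf and Csmd1 and 2 for Osmr. Those lower were Fga, Fgb, Fgg, Hamp, Ttr, Trf, Ahsg, Ces1c, Il1b, Il1rap, C1ra, C8g, Serping1, Vtn and Cpn1.

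When every nucleus was thinned to 1000 UMIs, a C1qb UMI was held by 2.63% of macrophage-like nuclei in ND (5 of 190), 8.16% in STZ-HFHC 1 (102 of 1250) and 6.87% in STZ-HFHC 2 (65 of 946). Without thinning these shares were 6.58%, 16% and 14.6%. In hepatocyte-like nuclei, which should lack C1q, the thinned shares were 0.231%, 0.728% and 0.252%. Median depth was 2305, 1854 and 2048 UMIs in macrophage-like and 4024, 7846 and 6532 UMIs in hepatocyte-like nuclei, and thinning left out 53, 150 and 86 macrophage-like nuclei.

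Within STZ-HFHC mice the 6 genes differed between macrophage-like clusters, although none had been used for clustering. Cluster 18, led by Gpnmb, Atp6v0d2 and Mmp12, held 1073 and 525 nuclei, and cluster 6 held 327 and 506. C1qb was at 116 and 101 CPM in cluster 18 against 16.4 and 22.1 CPM in cluster 6, a ratio of 7.09 in STZ-HFHC 1 and 4.59 in STZ-HFHC 2. C1qa was at 109 and 62.1 CPM against 26.2 and 16.7 CPM, and C1qc at 106 and 48.8 CPM against 18.97 and 9.996 CPM. C3ar1 was at 49.5 and 33.8 CPM against 11.8 and 6.66 CPM, C5ar1 at 17.9 and 22.02 CPM against 5.23 and 2.50 CPM, and Cfp at 72.2 and 36.2 CPM against 16.4 and 15.8 CPM. For all 6 genes and both mice the intervals of the 2 clusters were apart. How many of all genes differed between these clusters in this way was not counted. The 14 macrophage markers summed to 5497 and 4742 CPM in cluster 18 and to 1359 and 1299 CPM in cluster 6, and the 12 reference genes to 1911 and 2097 CPM against 3166 and 3037 CPM. Their part in these differences was not tested. In ND, where cluster 9 held 227 of the 243 macrophage-like nuclei, C1qb was at 17.7 CPM, C1qa at 19.8 CPM and Cfp at 20.8 CPM, near cluster 6 and below cluster 18.

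**Figure D3:**
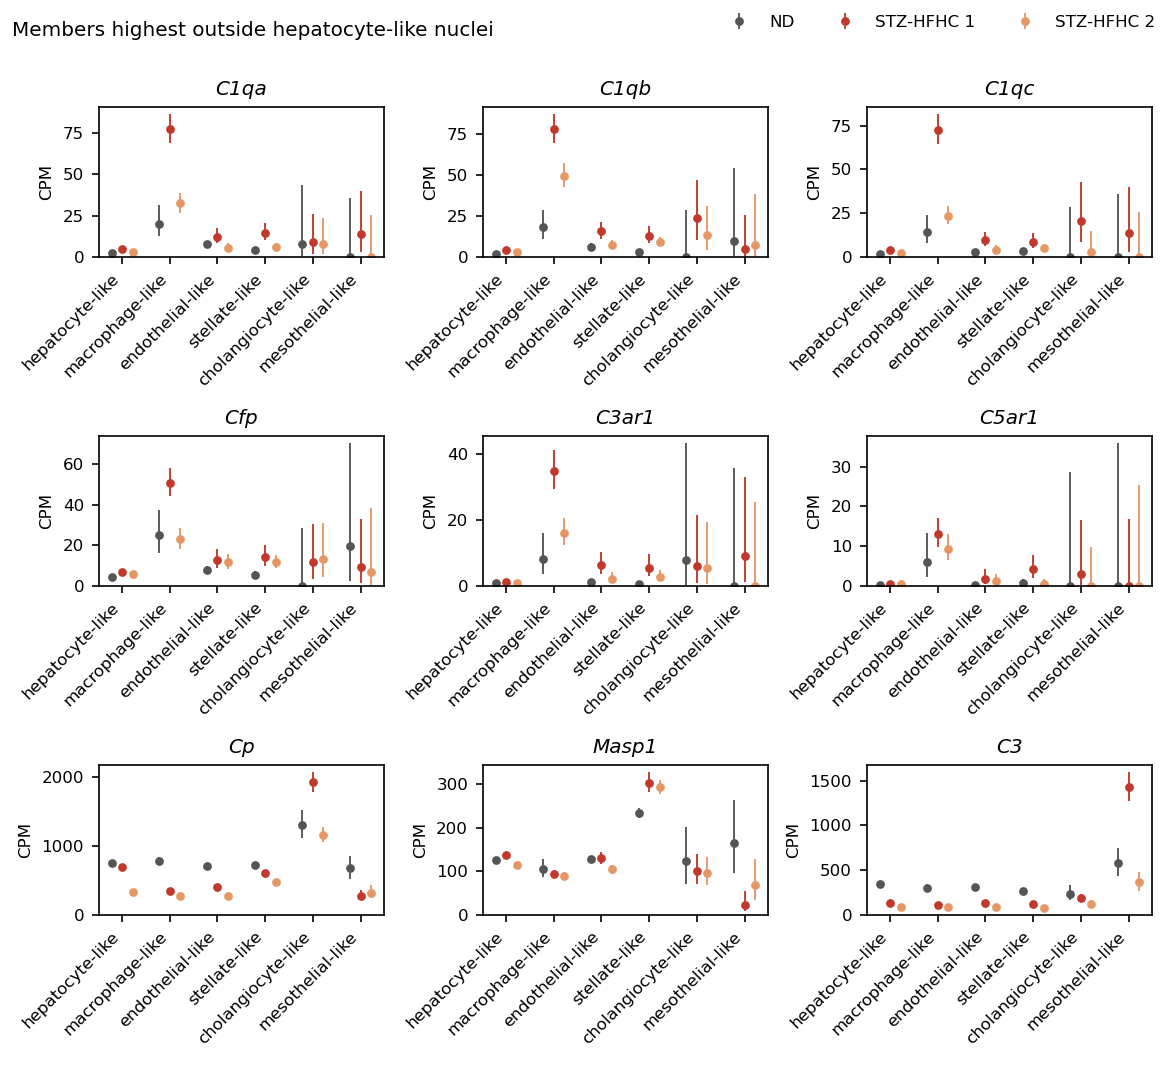
Level (CPM) of 9 genes in 6 classes of nuclei of each mouse, with 95% Poisson intervals. Of the 6 classes drawn, C1qa, C1qb, C1qc, Cfp, C3ar1 and C5ar1 were highest in macrophage-like nuclei, Cp in cholangiocyte-like, Masp1 in stellate-like and C3 in mesothelial-like nuclei.

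Other members were highest in smaller classes. Cp was at 1299, 1920 and 1160 CPM in cholangiocyte-like nuclei, or 1.75, 2.81 and 3.60 times what hepatocyte-like nuclei held, and above the free RNA range in all 3 libraries, although from 33, 103 and 139 nuclei. It was the only member above the range there in both STZ-HFHC mice, against 4.57% of genes. Masp1 was at 234, 304.5 and 295 CPM in stellate-like nuclei, 1.85, 2.203 and 2.58 times its level in hepatocyte-like nuclei. In stellate-like nuclei Masp1, C1qb and C3ar1 were above the range in both STZ-HFHC mice, against 13.9% of genes, C3ar1 from 12 UMIs in each. C1qb was above it in both mice in endothelial-like nuclei and in those named T or NK cell and B cell as well. C1qa was so in nuclei named T or NK cell. The 12 reference genes are hepatocyte genes, so the range does not cover free RNA from macrophages. C3 was at 574, 1430 and 360 CPM in mesothelial-like nuclei, from 35, 58 and 40 nuclei, or 1.66, 11.1 and 4.41 times what hepatocyte-like nuclei held. It was above the free RNA range in both STZ-HFHC mice but not in ND, where the highest reference ratio was 1.98 (Ambp).

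Across all classes of at least 20 nuclei, the class with the highest level was the same in every library for 11 members: macrophage-like for C1qa, C1qb, C1qc, Cfp and C3ar1, hepatocyte-like for Crp and Itih2, mesothelial-like for C2 and C3, cholangiocyte-like for Cp and stellate-like for Masp1. Only for Cp and C3 was its interval apart from that of the next class in every library. For the other 26 members the class differed between libraries, C5ar1 among them.

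Hepatocyte-like clusters differed in these genes within a mouse. In the ND mouse, cluster 0 (862 nuclei, led by Serpina1e and Mup17 with 4 mitochondrial genes among its first 10) stood apart from clusters 1 and 3. Hp was at 849 CPM in cluster 0 against 224 and 139 CPM in clusters 1 and 3, C3 at 739 CPM against 299 and 239 CPM, and Orm1 at 79.3 CPM against 12 and 8.44 CPM. Cluster 0 also held most of the ND Saa1, at 13.1 CPM against 0.800 and 1.26 CPM. Mitochondrial UMIs were 0.889% in cluster 0 and 0.0333% and 0.0323% in the other two. Their part in these levels was not tested. Without cluster 0, 5 members were higher in STZ-HFHC, with Saa1 added, and 4 were lower, Itih1, Itih3, C3 and C8b. Without cluster 23, 35 members had enough UMIs, against 36 with it. Of the 35, 3 were higher (Saa2, Orm3 and Lcn2), against 7.63% of genes, and 7 were lower, against 5.83%.

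In the STZ-HFHC mice, cluster 21, with Nrg1, Areg and Pdk4 among its leading genes and holding 1070 and 201 nuclei, had higher Saa1, Lcn2, Cp and Apcs than the other hepatocyte-like nuclei of the same mouse. These were 4 members against 2.32% of 14160 genes, and no member was lower there, against 0.939%. Apcs had only 29 and 30 UMIs in all hepatocyte-like nuclei of STZ-HFHC 1 and 2. In the first naming step, described below, cluster 21 was closest to cholangiocytes, with 2 of 8 markers raised. Saa1 was at 15.4 and 13.9 CPM in cluster 21 and at 4.12 and 3.75 CPM in the other nuclei. Lcn2 was at 13.1 and 8.06 CPM against 3.34 and 1.80 CPM, and Cp at 1063 and 709 CPM against 499 and 307 CPM. STZ-HFHC 1, the mouse with more nuclei in this cluster, was also the one with more Saa1, Lcn2 and Cp over all hepatocyte-like nuclei.

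Cluster 19, led by the interferon-induced genes Rsad2 and Ifit1, was present in all 3 mice but held only 24 and 46 nuclei in STZ-HFHC. Against the other hepatocyte-like nuclei of these mice, 9 members were higher, against 8.19% of genes. Hpx was at 390 and 421 CPM against 121 and 112 CPM, C2 at 149 and 163 CPM against 55.9 and 47.4 CPM, and C4b at 154 and 234 CPM against 60.9 and 106 CPM, with ratio intervals above 1 in both mice. Cfb was at 46.2 and 91.8 CPM against 23.6 and 26.4 CPM, and its interval reached below 1 in STZ-HFHC 1. For Saa2, Saa3, Orm2, Apcs and Lcn2 the cluster held between 1 and 9 UMIs per mouse.

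**Figure D4:**
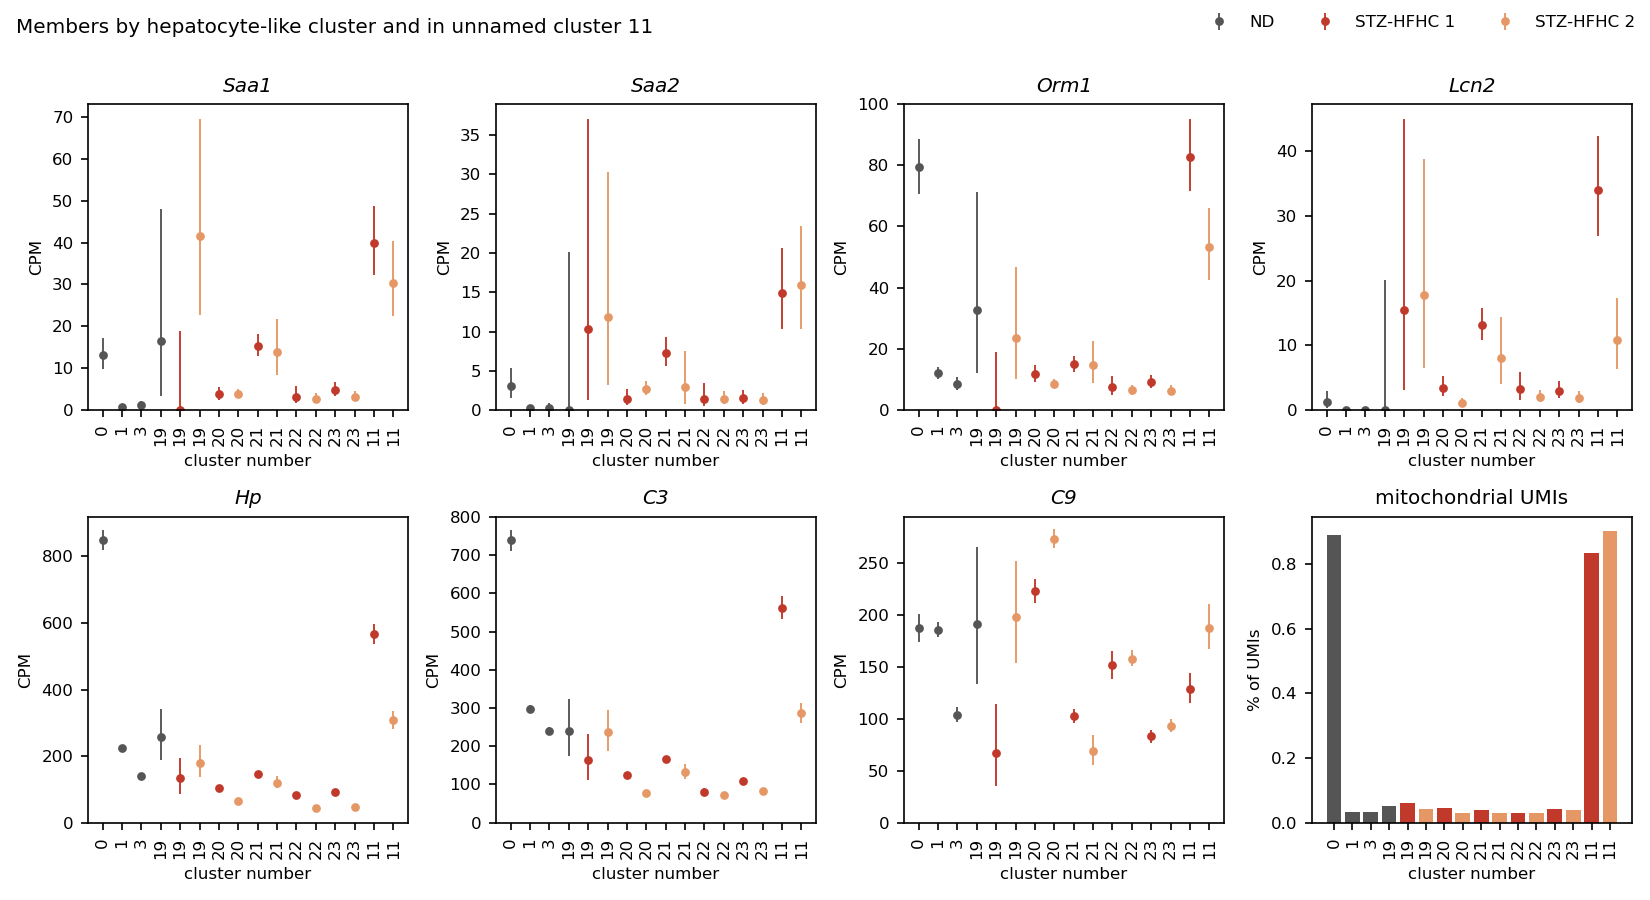
Level (CPM) of 7 genes and the percentage of mitochondrial UMIs in each hepatocyte-like cluster and in the unnamed cluster 11, by mouse, with 95% Poisson intervals for the levels; clusters of fewer than 20 nuclei in a mouse are not drawn. Hp, C3 and Orm1 were highest in cluster 0 of ND and cluster 11 of STZ-HFHC, the clusters with the most mitochondrial UMIs.

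Position along the liver lobule was read from 10 pericentral and 10 periportal genes, none of them a member. Hepatocyte-like nuclei of each mouse were ranked by the difference of the mean levels, and the outer tertiles (1807, 1017 and 1599 nuclei each) were compared. The tertiles are ranges and not cell types: 824, 460 and 693 nuclei lay near a limit. The enzyme gene Glul, 1 of the ranking genes, was at 528, 491 and 466 CPM in the pericentral and 12.8, 21.9 and 16.4 CPM in the periportal tertile.

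C9 was the member with a periportal excess of at least 2-fold in all 3 mice, against 0.818% of 14054 genes. Its level in the pericentral and periportal tertiles was 99.1 and 206 CPM in ND, 71.6 and 207 CPM in STZ-HFHC 1 and 95.02 and 272 CPM in STZ-HFHC 2. The log2 ratios averaged -1.37 ± 0.27 (SD, n = 3 mice, of which 1 was ND). C8a, C8b and Hc, the other members that belong to the membrane attack complex, lay on the same side in every mouse. The log2 ratio of pericentral to periportal level was -0.79, -0.83 and -0.78 for C8a, -0.78, -0.85 and -1.51 for C8b and -0.59, -0.41 and -0.55 for Hc.

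Saa1 and Lcn2 leaned to the pericentral side. Lcn2 was at 10.3 against 3.71 CPM in STZ-HFHC 1 and 3.07 against 1.04 CPM in STZ-HFHC 2. It passed the rule in all 3 mice, against 1.60% of genes, but the ND value rested on 4 pericentral and 0 periportal UMIs. Saa1 had log2 ratios of 0.98, 1.96 and 0.83. Over the 37 members, 12 were higher on the periportal and 10 on the pericentral side in every mouse, most of them by less than 2-fold. The same count was not made over all genes. The 37 include Orm2, C3ar1 and C5ar1, which had too few UMIs for the rule. C8b remained below ND within each tertile, with log2 ratios of -2.43 and -1.94 in the pericentral and -2.36 and -1.21 in the periportal tertile of STZ-HFHC 1 and 2.

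**Figure D5:**
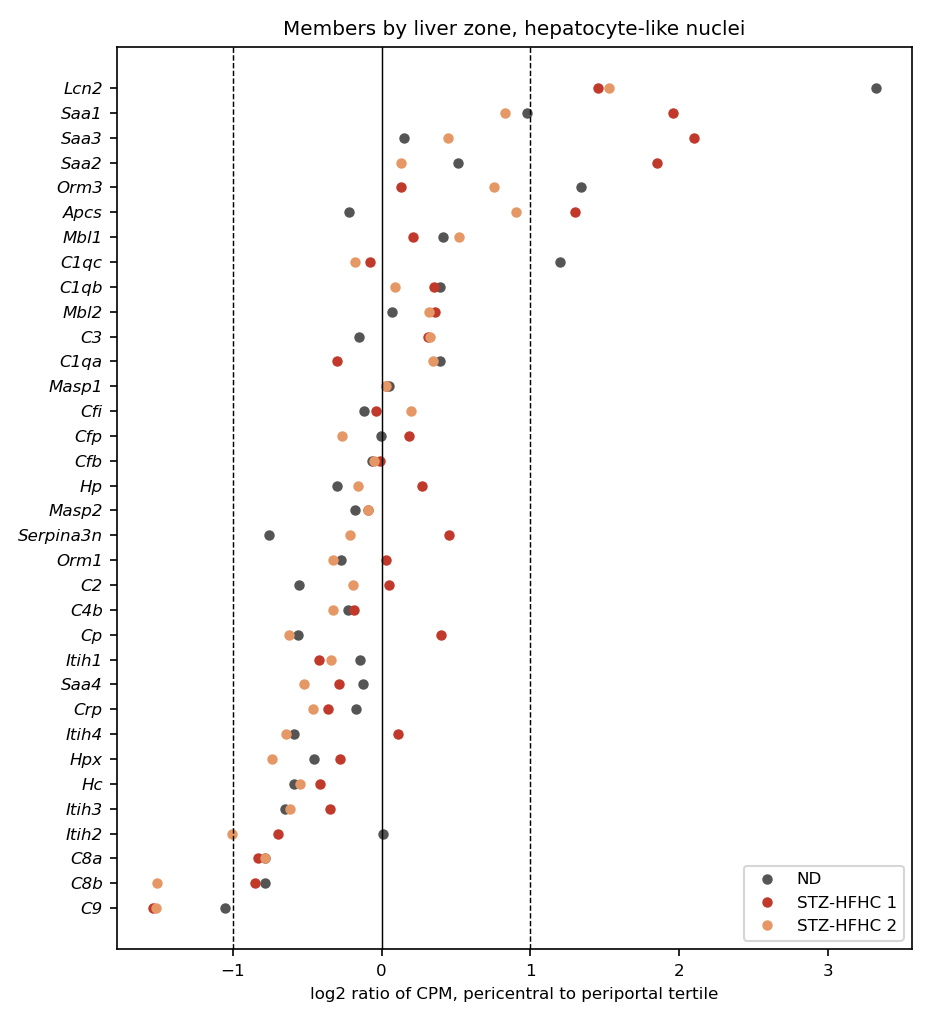
Log2 ratio of the level (CPM, 0.5 added to each count) in the pericentral tertile to that in the periportal tertile of hepatocyte-like nuclei, by mouse, for the 34 genes with at least 50 UMIs; dashed lines mark 1 and -1. C9 lies left of -1 in all 3 mice, and the ND point of Lcn2 comes from 4 and 0 UMIs.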

How the data were processed

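Tables of raw UMI counts, deposited by the authors, were used for 3 sNuc-Seq libraries, 1 ND and 2 STZ-HFHC livers, made with a 10x 3' kit and, per the labels, Cell Ranger 7.0.1 on mm10. Free RNA was not removed from these counts in any step the sources used here describe. The files held 30989 barcodes, the number of cells given in the study's methods after filtering; that filter (200 to 5000 genes, at most 5% mitochondrial UMIs) left 28336 here. Nuclei were clustered with Scanpy 1.11.5 (counts scaled to 10000 and log-transformed, 2000 variable genes without the 37 members, 30 components, 15 neighbours, Leiden resolution 1, no batch correction) and clusters were named from 12 marker lists. A cluster with markers of several classes was left unnamed. Where too few markers were raised, a second step named a cluster hepatocyte-like if at least 3 hepatocyte markers were 1.2-fold or more above clusters of other classes. Clusters 1, 3 and 19 to 23 were named this way. In the first step clusters 20 and 22 had raised 1 of 10 hepatocyte markers. Cluster 21 was closest to cholangiocytes (2 of 8 raised) and cluster 23 to T or NK cells (1 of 10 raised). Clusters with 5 or more mitochondrial genes among their first 10 were kept out of the second step. Doublets were kept, since Scrublet's automatic limit marked 3, 1 and 1 nuclei, and the highest 8% of scores were left out as an alternative.

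UMIs of each gene were summed per class and library and divided by all UMIs of those nuclei (CPM). With 1 ND library no test was run, and genes were called by the rule of size given above. Exact Poisson and Clopper-Pearson intervals (95%, SciPy 1.17.1) cover counting error only. The steps were tested on simulated data. All 37 members are named, as are the genes of each pathway list that passed the rule in hepatocyte-like or macrophage-like nuclei. Each list's highest expressed gene is named for hepatocyte-like nuclei. The members and lists were chosen with earlier results of these data known. Alternatives covered doublets, resolution, barcode filter, clustering genes, weighting of nuclei, centring, UMI minimum, added count, size limit and each STZ-HFHC mouse left out.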

Additional observations from a re-analysis of the deposited data

Results flagged for a closer look

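Cluster 11 was left unnamed and so entered no comparison between groups above, except the counts given with it added. Too few markers of any class were raised in it, and the closest list was that of stellate cells, with 3 of 10 raised. Mitochondrial genes made up 8 of its 10 leading genes, which kept it out of the second naming step that named clusters 20 to 23 hepatocyte-like. Cluster 0 of ND, with 4 such genes among its first 10, was named hepatocyte-like in the first step. In STZ-HFHC 1 and 2 cluster 11 held 910 and 512 nuclei, with a median of 1330 and 1336 UMIs and 0.833% and 0.901% mitochondrial UMIs. It is listed here because 7 members were read in it, in both STZ-HFHC mice, at more than 2 times their level in every ND class of at least 200 nuclei, with the intervals apart. The share of all genes that met this limit was not counted. Among the inducible genes, Saa1 was at 39.9 and 30.46 CPM, Saa2 at 14.86 and 15.86 CPM, Orm3 at 20.38 and 14.59 CPM and Lcn2 at 33.96 and 10.79 CPM. The plasma protein genes Orm1 (82.77 and 53.3 CPM), Hpx (534.8 and 397.2 CPM) and Mbl2 (151.5 and 102.2 CPM) were high there too. Hepatocyte-like nuclei of the same mice had 7.79 and 4.14 CPM of Saa1 and 6.51 and 2.04 CPM of Lcn2. In ND, cluster 0 had a like share of mitochondrial UMIs (0.889%) and 13.1 CPM of Saa1, 1.28 CPM of Lcn2 and 79.3 CPM of Orm1. The part of the mitochondrial share in these levels was not tested.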

How the results depend on the processing

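Saa2, Orm3 and Lcn2 stayed higher and Itih1, Itih3, C3 and C8b lower in STZ-HFHC under all 15 alternatives run for each gene. Of these, 4 were chosen after seeing the data: leaving out cluster 0, cluster 23 or both, and adding cluster 11. Leaving out 1 STZ-HFHC mouse could not remove a call or change its sign, because the rule already required both mice. The alternative that summed all nuclei of a library was not limited to hepatocyte-like nuclei, as the others were. Hp no longer passed the rule in 5 of the 15, Apcs in 4 and Orm2 in 3, and none of the 10 called genes changed sign. Summing all nuclei of a library made 9 members higher in STZ-HFHC (13.6% of all genes were, at this setting), against 4 in hepatocyte-like nuclei. With a log2 limit of 0.5, 11 members were lower in hepatocyte-like nuclei (14.2% of all genes), and 6 were higher (27.1%) and 14 lower (13.5%) in macrophage-like nuclei. In macrophage-like nuclei, where 2 members were higher, the count was 4 without the highest doublet scores (15.4%), 4 with at least 20 UMIs (15.1%) and 1 with 5 added to each count (5.81%). Weighting nuclei equally made hepatocyte-like nuclei the highest class in every library for 5 members, against 2. With 1 STZ-HFHC mouse left out, 4 to 9 members were higher in hepatocyte-like nuclei (10.1% to 12.8% of all genes), and 2 to 6 were higher (15.3% to 20.8%) and 7 to 15 lower (6.12% to 10.1%) in macrophage-like nuclei. Each upper value came without STZ-HFHC 2; in hepatocyte-like nuclei it added Saa1, Saa3, C1qa, C1qb and C1qc. The causes of these shifts were not tested, apart from the fewer mice and the looser limits themselves. The 6 members above the free RNA range in macrophage-like nuclei were 6 under every alternative run. No paired analysis was possible because no label pairs the ND mouse with an STZ-HFHC mouse.

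The main limits are the single ND mouse, which leaves the spread between normal mice unknown, and the free hepatocyte RNA in nuclei of every class. The ND macrophage-like nuclei were 243, with 8 UMIs of C3ar1, 6 of C5ar1 and 1 of Saa1, and calls there are imprecise. Orm2, Apcs and, in ND, Lcn2 rest on few UMIs.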
